A study of Mus musculus with 2 samples.

Results

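The genes described here are the potassium channel genes of the mouse brain: every gene whose symbol begins with Kcn and that held at least 100 unique molecular identifiers (UMIs, 1 per captured RNA molecule) summed over both sections. Of the 32285 genes in the tables, 99 have such a symbol, and 75 reached the minimum. The total over both sections was therefore used to choose the members and is not a result. Kcnmb1 (108 UMIs), Kcnh8 (113) and Kcnd3os (124) lay just above the minimum, and Kcnj5 (98), Kcnh4 (94) and Kcnj14 (86) just below it. The members with the most UMIs were Kcnj10 (14345), Kcnc1 (14123) and Kcna2 (12135). Of the 75 members, 72 belong to a channel family or its auxiliary subunits, and 3 are other transcripts that carry a Kcn symbol (Kcnq1ot1, Kcnd3os and Kcnmb4os2).

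Potassium channels set the resting potential of cells and end the action potential. Voltage-gated (Kv) channels assemble from 4 pore subunits and are tuned by auxiliary proteins: beta subunits for Kv1, KChIP proteins for Kv4, and silent Kv subunits that form channels only together with Kv2. Inward rectifiers (Kir) and K2P leak channels act near rest, and glial Kir channels take up potassium released by neurons. BK and SK channels are opened by calcium, and Kv3 channels, which close fast, allow neurons to fire at high rates.

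The data are spatial RNA counts from 10x Visium slides, whose spots each cover a small area that can hold several cells. Each of 2 mice gave 1 coronal brain section. Mouse 1 was a wild-type C57BL/6J control and mouse 2 a wild-type isogenic control from CRISPR-Cas9 editing. Both expressed hM3Dq, a designer receptor activated by clozapine N-oxide (CNO), and both received CNO, so no untreated group is compared here. The labels used here do not state the promoter, the vector, the age or the injected side. Sections of 10 µm were cut 1.9 mm behind bregma from unperfused, fresh-frozen brains trimmed at the sides, and the injection was at 4.6 mm. The question asked here is in which parts of the section each channel gene was high.

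The section of mouse 1 had 30671753 UMIs and a median of 7556.5 per spot, and that of mouse 2 had 55315952 and 14663. Mitochondrial genes took 13.3% and 15.4%. The sections shared 3369 spot barcodes, which are fixed by the array layout and do not mark shared cells. Spots were clustered without any Kcn gene, and the clusters were named from marker genes, which gave 29 regions with at least 20 spots in each section, 18 of them named. Regions are called here by place and leading gene. Where a region is called highest, next or lowest for a gene, only the 18 named regions are ranked. The CA2/CA3 region (led by Hpca, Neurod6 and Cpne6) had 5 of the 8 markers of its set but none among its 10 leading genes. The CA1 Spink8 region had as many neuropil as CA1 markers among them (3 each). The layer 5 region was led by S100a9 and S100a8 before Etv1 and Fezf2, and the habenular region also carried 3 ependymal markers. The retrosplenial region, led by Slc17a6 and Htr2c before Tshz2, had 3 of the 5 markers of its set. Only 1 of them was among its 10 leading genes, as was 1 marker of another set. It held 35 spots in mouse 1 and 25 in mouse 2. No region was kept for layer 4. Levels are CPM, a gene's UMIs per 1000000 UMIs of a region. Spots mix cells, so fewer cells of a type and less RNA per cell cannot be told apart. CPM is not per transcript length, and levels are compared between regions, not between genes. On GRCm38.p6, the genes that recur below lie on chromosome 2 from 62693410 to 63184287 (Kcnh7), chromosome 3 from 64949212 to 65378225 (Kcnab1), chromosome 11 from 33629339 to 33993348 (Kcnip1), chromosome 14 from 23292288 to 24005110 (Kcnma1) and chromosome 12 from 99963149 to 100062682 (Kcnk13).

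Promoters are shown for 3 members that were high in few regions: Kcnc1, high in the relay and reticular thalamus, and Kcne2 and Kcnj13, high in the choroid plexus. The sequences are RefSeq's, on GRCm38.p6, from 250 bases before to 50 after a transcript start, 5′ to 3′. Entries were found for 54 of the 75 members (78 promoters). The 3 members were chosen after their levels had been seen. Capitals mark a GC box (GGGCGG on either strand) or a TATA box (TATAAA on either strand). The windows are chr7:46396218-46396517 (plus strand) for Kcnc1, chr16:92292139-92292438 and chr16:92295366-92295665 (plus strand) for the 2 entries of Kcne2, and chr1:87394680-87394979 (minus strand) for Kcnj13. The Kcnc1 gene starts at 46396219, so its window lies at the beginning of the annotated gene and not upstream of it. The window of the downstream Kcne2 start also lies within its gene.
Kcnc1: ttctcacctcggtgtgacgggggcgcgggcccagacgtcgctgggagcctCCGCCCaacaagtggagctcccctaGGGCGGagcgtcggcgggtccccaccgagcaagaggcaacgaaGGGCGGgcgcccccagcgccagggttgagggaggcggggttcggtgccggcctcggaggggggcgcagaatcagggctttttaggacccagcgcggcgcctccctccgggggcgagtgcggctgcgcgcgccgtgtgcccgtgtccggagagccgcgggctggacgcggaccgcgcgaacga
Kcne2 upstream start: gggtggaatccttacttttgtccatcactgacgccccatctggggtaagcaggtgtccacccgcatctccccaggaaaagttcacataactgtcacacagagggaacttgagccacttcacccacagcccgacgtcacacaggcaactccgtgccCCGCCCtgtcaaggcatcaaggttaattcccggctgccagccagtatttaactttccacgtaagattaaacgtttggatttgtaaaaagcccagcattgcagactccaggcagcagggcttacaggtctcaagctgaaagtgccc
Kcne2 downstream start: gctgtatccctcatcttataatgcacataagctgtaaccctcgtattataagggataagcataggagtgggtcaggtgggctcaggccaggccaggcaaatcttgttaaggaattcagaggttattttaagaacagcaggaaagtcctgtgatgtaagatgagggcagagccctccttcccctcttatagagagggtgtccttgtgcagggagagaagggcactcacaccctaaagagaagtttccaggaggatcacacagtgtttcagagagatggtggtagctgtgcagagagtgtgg
Kcnj13: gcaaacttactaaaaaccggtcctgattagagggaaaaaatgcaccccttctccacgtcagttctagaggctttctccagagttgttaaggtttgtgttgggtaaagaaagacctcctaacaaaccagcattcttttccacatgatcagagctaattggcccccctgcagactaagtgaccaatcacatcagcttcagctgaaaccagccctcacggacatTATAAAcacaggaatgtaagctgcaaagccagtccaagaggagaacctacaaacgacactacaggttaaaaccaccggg
The Kcnc1 window was 74.7% G or C and held 3 GC boxes. The Kcne2 windows were 53.0% and 48.7% G or C and held 1 and 0, and the Kcnj13 window, at 46.0%, held no GC box and 1 TATA box. GC boxes were in 36 of the 78 member promoters (46.2%) and in 35.7% of all 32851 promoters of this length. TATA boxes, a motif added after the sequences had been read, were in 4 of 78 (5.13%) and in 13.6% of all. The cyclic AMP response element TGACGTCA was in 0 of 78 and in 1.79% of all promoters. The motif AGGTCA was in 5 of 78 (6.41%) and 16.3% of all, and TAATCC in 2 of 78 (2.56%) and 7.06% of all. All were searched on both strands. TGACGTCA and AGGTCA both end in the letters GTCA but differ in the base before them, and a match is a description of the sequence only.

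Nearly every tested member differed between regions. In an edgeR quasi-likelihood fit on UMIs summed per mouse and region, with the mouse as a block, 65 members passed the filter on low counts. Of these 64 differed among regions at a Benjamini-Hochberg adjusted p under 0.05, where 87.6% of all 12198 genes tested did. Kcnd1 did not pass (adjusted p = 0.359). The 10 members not tested held between 124 and 403 UMIs. In 48 of the 75 members the same named region was the highest in both sections. Among members with at least 1000 UMIs this held for 31 of 45, and among the others for 17 of 30. The regions that were highest for most members in both sections were the Zfp804a relay region (7 members), the reticular region (7), and the CA1, retrosplenial and habenular regions (5 each). The retrosplenial region, with few spots, was highest for 9 members in mouse 1 and 6 in mouse 2.

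**Figure D1:**
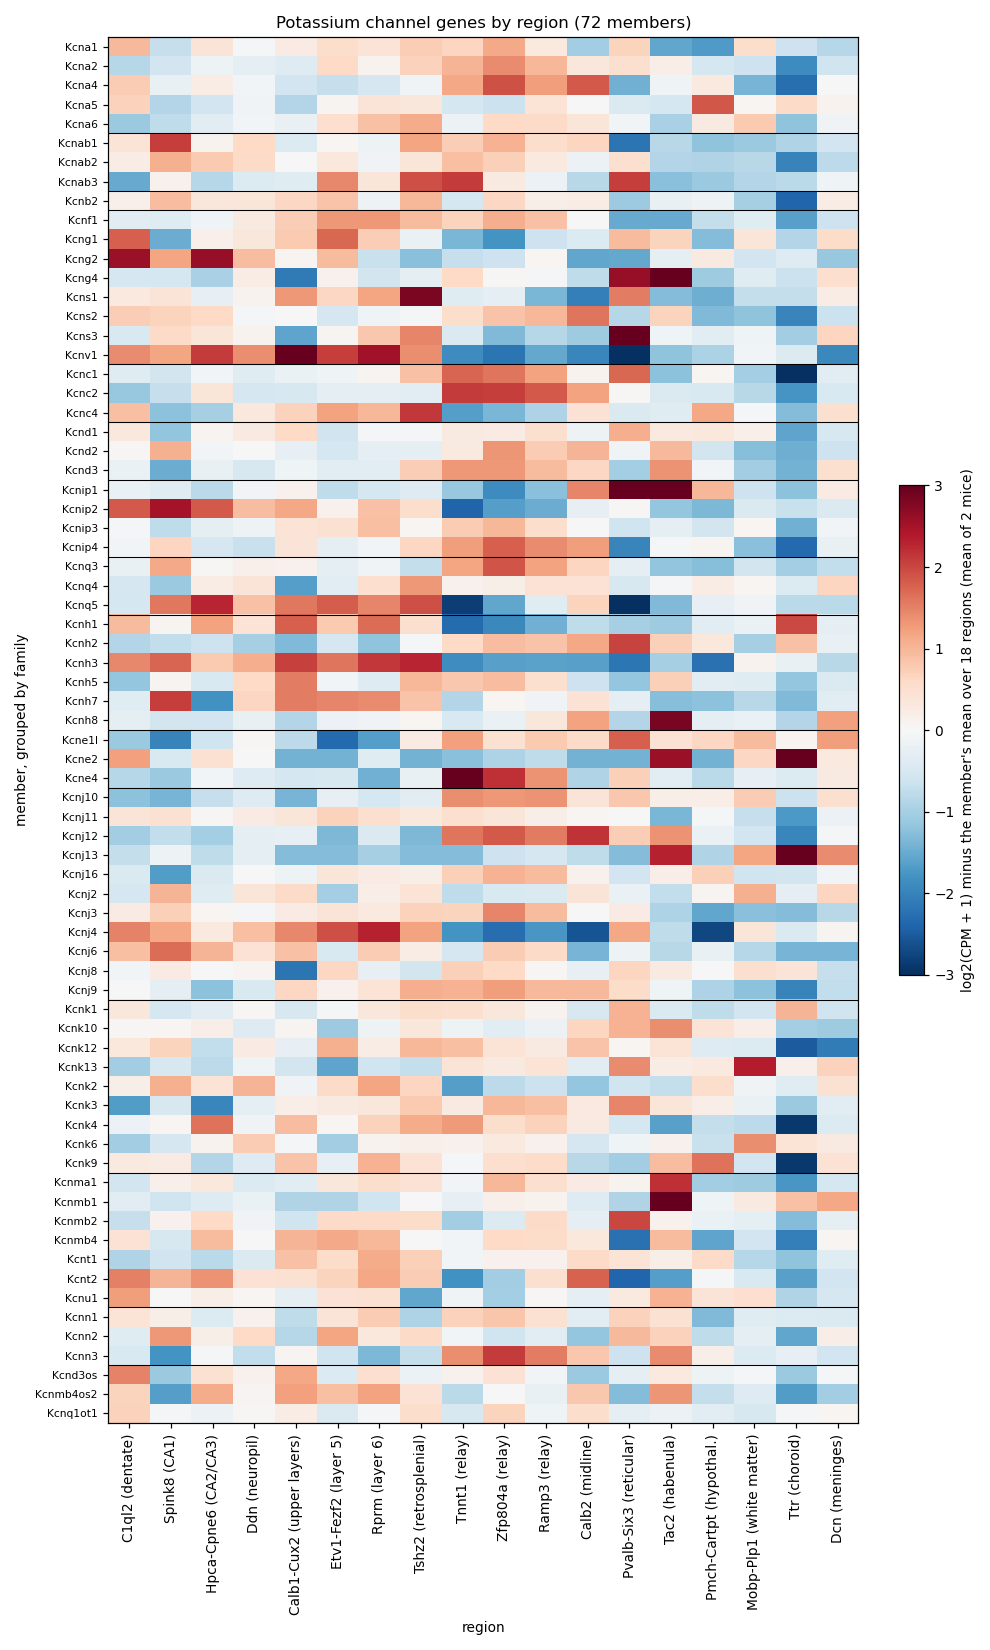
Level of 72 members (rows, grouped by family with lines between families) in 18 named regions (columns), as log2(CPM + 1) minus the member's own mean over the regions, averaged over 2 mice; colours stop at 3 in either direction. Red blocks mark Kcnh7 and Kcnab1 in CA1, Kcnc1 and Kcnc2 in the relay regions, Kcnip1 and Kcng4 in the reticular and habenular regions, and Kcne2 and Kcnj13 in the choroid plexus.

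Kcna1 and Kcna2, Kv1 pore genes that encode low-threshold channels found along axons, were highest of the named regions in the thalamus. Kcna2 reached 241 and 295 CPM in the Zfp804a relay region of mouse 1 and mouse 2, against 52.5 and 84.4 in CA1. The unnamed cortical region led by Cbln1 and Pygm was above that relay region for Kcna2 in mouse 1 only. Kcna1 was also highest in the Zfp804a relay region, at 31.7 and 30.7 CPM, with the dentate C1ql2 region next at 28.8 and 27.2. Kcna1 in the hypothalamic region was 3.63 and 3.44 CPM, below both in each mouse. Kcna6, also of the Kv1 group, was highest in the retrosplenial Tshz2 region (124 and 109 CPM). Kcnab1, which encodes an inactivating beta subunit, was highest in CA1 (288.5 and 295 CPM) and lowest of the named regions in the reticular region (14.3 and 14.5). Kcnab3 was high in the Tnnt1 relay (107 and 82.6), reticular (101 and 84.1) and retrosplenial regions (81.4 and 85.1), which overlapped one another across the mice.

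Kcnf1, a silent subunit gene, was highest of the named regions in layers 5 and 6 (69.7 to 77.6 CPM over both layers and mice). The unnamed cortical regions led by Cbln1 and Pygm and by Ccn2 and Cplx3 were above these layers in both mice. Kcnv1, another, was highest in the upper-layer Cux2 region (67.9 and 66.6 CPM) and had no UMI in the reticular region of either mouse. Kcns3 was high in the reticular region (62.3 and 47.6 CPM), with the retrosplenial region next at 12.9 and 15.95.

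The Kv3 genes differed in where they were high. Kcnc1 was high in the Tnnt1 relay region (320.4 and 349 CPM) and the reticular region (316 and 347), and these regions overlapped. Kcnc2 was also highest in the Tnnt1 relay region (275 and 282), which overlapped the Zfp804a relay region across the mice. In the reticular region Kcnc2 was 71.6 and 60.0. Kcnc4, by contrast, was highest in the retrosplenial region (120.0 and 109) and was 6.73 and 8.04 in the Tnnt1 relay region. Both Kcnc1 and Kcnc2 had their highest level in the Tnnt1 relay region, and their order of regions differed after it.

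Among the Kv4 genes, which carry the fast A-type current of dendrites, Kcnd2 was highest of the named regions in the Zfp804a relay region (255 and 234 CPM). CA1 (207 and 203), the Calb2 midline region (189.7 and 205.6) and the habenular region (174 and 209), which overlapped one another, followed. In mouse 2 only, the unnamed region led by Necab1 and Gbx2 was above the Zfp804a relay region for Kcnd2. The auxiliary KChIP genes were divided between regions. Kcnip2 was highest in CA1 (179 and 158), and was 3.23 and 6.54 in the Tnnt1 relay region. Kcnip4 was highest in the Zfp804a relay region (248 and 261), and Kcnip1 in the habenular region (199 and 166.5) and then the reticular region (172 and 129). Kcnip4 was at 17.7 and 17.9 CPM in the reticular region and at 5.81 and 30.9 in the choroid plexus, and these were its lowest named regions in either mouse.

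The Kv7 genes encode the M-current, which restrains repeated firing. Kcnq3 was highest in the Zfp804a relay region (241 and 253 CPM). Kcnq3 was low in the hypothalamic region (26.5 and 26.8) and the habenular region (24.1 and 33.1), which overlapped. Kcnq5 was highest in CA2/CA3 (49.3 and 70.8) and had no UMI in the reticular region of either mouse.

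In the Kir family, Kcnj10, the channel of astrocytes and oligodendrocytes, was high in all 3 relay regions (255 to 274 CPM over regions and mice) and low in the upper layers (40.3 and 37.6). Kcnj3, a subunit of the G-protein-gated channels, was highest in the Zfp804a relay region (185 and 228). Kcnj4 was highest in layer 6 (69.7 and 74.5) and was at most 4.23 in any relay region. Kcnj6, also of the G-protein-gated group, had only 185 UMIs, was at most 8.57 CPM in any named region and was not tested. Kcnj12 was highest in the Calb2 midline region (34.0 and 34.6).

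Of the K2P genes, Kcnk1 was high in the reticular region (149.9 and 134) and the choroid plexus (138 and 142), which overlapped. Of the named regions, Kcnk2 was highest in layer 6 (45.3 and 55.1) and Kcnk13 in the white matter (51.7 and 43.1). Kcnk9 was highest in the hypothalamic region (50.04 and 58.2) among named regions, but the unnamed Penk-led region was above it in both mice. Of the calcium- and sodium-activated genes, Kcnma1, the BK pore gene, was highest in the habenular Tac2 region (327 and 347.5), against 144 and 149 in the Zfp804a relay region. Kcnn2, an SK pore gene, was highest in CA1 (55.7 and 59.4) and next in layer 5 (51.4 and 53.9). Kcnt2, a sodium-activated channel gene, was high in the midline region (34.0 and 27.1) and the dentate C1ql2 region (22.6 and 27.9).

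**Figure D2:**
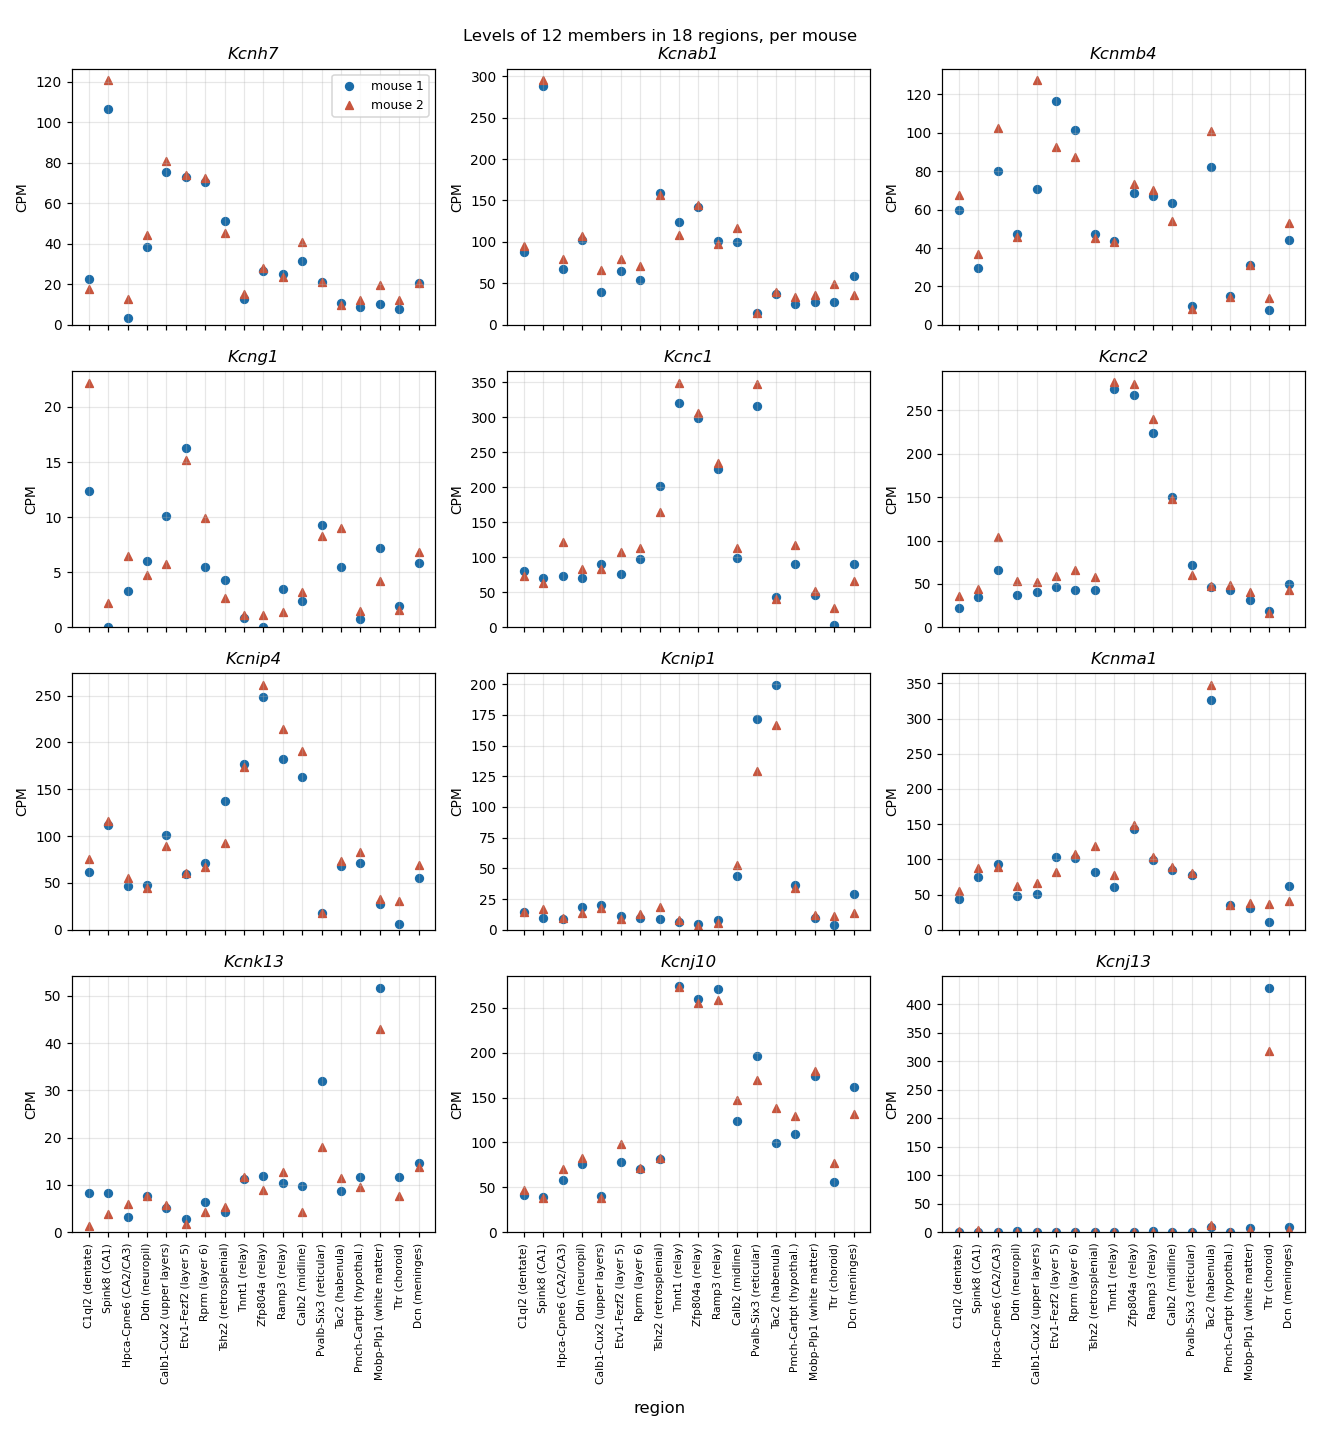
CPM (y axis, from 0) of 12 members in 18 named regions (x axis), 1 point per mouse (circles mouse 1, triangles mouse 2). Points of both mice lie close together where a member is high, as for Kcnma1 in the habenular region (327 and 347.5) and Kcnab1 in CA1 (288.5 and 295), and Kcng1, with few UMIs, is more scattered.

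Within the hippocampus, the CA1 Spink8 region stood apart from CA2/CA3 by Kcnh7 and Kcnab1. Kcnh7, which encodes an ERG-type channel, was at 107 and 120.5 CPM in CA1 and at 3.29 and 12.9 in CA2/CA3, a log2 difference of 3.50 (SE 0.25, adjusted p = 3.05e-24 by edgeR). Kcnab1 was 1.88 higher on that scale (SE 0.13, adjusted p = 1.01e-23). Both mice showed each of these. Differences here and below are in log2, from the fit, and standard errors rest on the spread pooled over genes and regions. Kcnd2 (1.05, SE 0.14) and its auxiliary subunit gene Kcnip4 (1.05, SE 0.17) were also higher in CA1. In CA2/CA3, Kcnmb4, the neuronal BK beta subunit gene, was higher, at 80.0 and 102 CPM against 29.5 and 36.7 (log2 difference -1.52, SE 0.19, adjusted p = 1.77e-10), as were Kcnk4 (-1.95, SE 0.39), Kcnd3 (-1.69, SE 0.34), Kcng2 (-1.60, SE 0.38) and Kcnj16 (-1.90, SE 0.54).

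In all, 15 members were higher and 13 lower in CA1, of 65 tested, where 13.5% of all genes were called (6.29% higher, 7.25% lower). By family, 2 of 4 KChIP genes and 2 of 3 Kv1 beta genes were higher. Kcnmb4os2 had 1 UMI in CA1 and 28 in CA2/CA3, a ratio of 24.3 (95% exact counting interval 4.02 to 993). It overlaps the end of Kcnmb4 (chromosome 10, 116473163 to 116474987, against 116417861 to 116473859), and counting of overlapping transcripts is uncertain. Astrocyte markers were lower in CA1 for 7 of 8 genes (summed 593 and 832 CPM against 1096 and 1083), and their part in these differences was not tested. Choroid plexus markers summed to 618 and 1760 CPM in CA1 and to 1348 and 148 in CA2/CA3. Kcnk12, called at 1.28 (SE 0.46), lost the call in 6 alternatives (adjusted p between 0.0520 and 0.255), and Kcnh3, at 1.10 (SE 0.28), under DESeq2 (adjusted p = 0.0636). With regions drawn from marker scores, Kcnip4 and Kcnj16 lost it (adjusted p = 0.601 and 0.0838).

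In the dentate C1ql2 region, Kcnc4 and Kcng1 were higher than in the mean of the CA regions and Kcnq5 lower. Kcnc4 was at 43.2 and 55.1 CPM against 9.85 and 12.8 (log2 difference 2.17, SE 0.24, adjusted p = 1.47e-12 by edgeR), and Kcng1, a silent subunit gene, at 12.3 and 22.2 against 1.64 and 4.33 (2.69, SE 0.47). Kcnq5 was at 12.3 and 4.43 CPM against 44.3 and 51.8 (-2.85, SE 0.35, adjusted p = 9.06e-11). The dentate and CA levels of these 3 genes did not overlap. Kcna1 (1.34, SE 0.29), Kcnd3 (1.16, SE 0.26) and Kcng2 (0.94, SE 0.31) were also higher, and Kcnn2 (-1.03, SE 0.25), Kcnc2 (-0.89, SE 0.20), Kcnma1 (-0.72, SE 0.17) and Kcnab1 (-0.64, SE 0.14) lower. Kcnd3 was about level in mouse 1 (16.5 against 17.0 CPM) and higher in mouse 2 (44.3 against 21.1).

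Here 11 members were higher and 11 lower, where 17.0% of all genes were called (8.86% higher, 8.11% lower). Kcnmb4os2 was called as well (2.15, SE 0.69) but not after the deeper section was thinned (adjusted p = 0.106). Of the gene partners of these channels, 4 of 10 Kv1 clustering genes were lower, among them Cntnap2, which anchors Kv1 channels at the juxtaparanode (-1.30, SE 0.18), and 1 was higher. All 8 oligodendrocyte markers were lower in the dentate region (summed 2246 and 2413 CPM against 3526 and 3428), and their part was not tested.

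**Figure D3:**
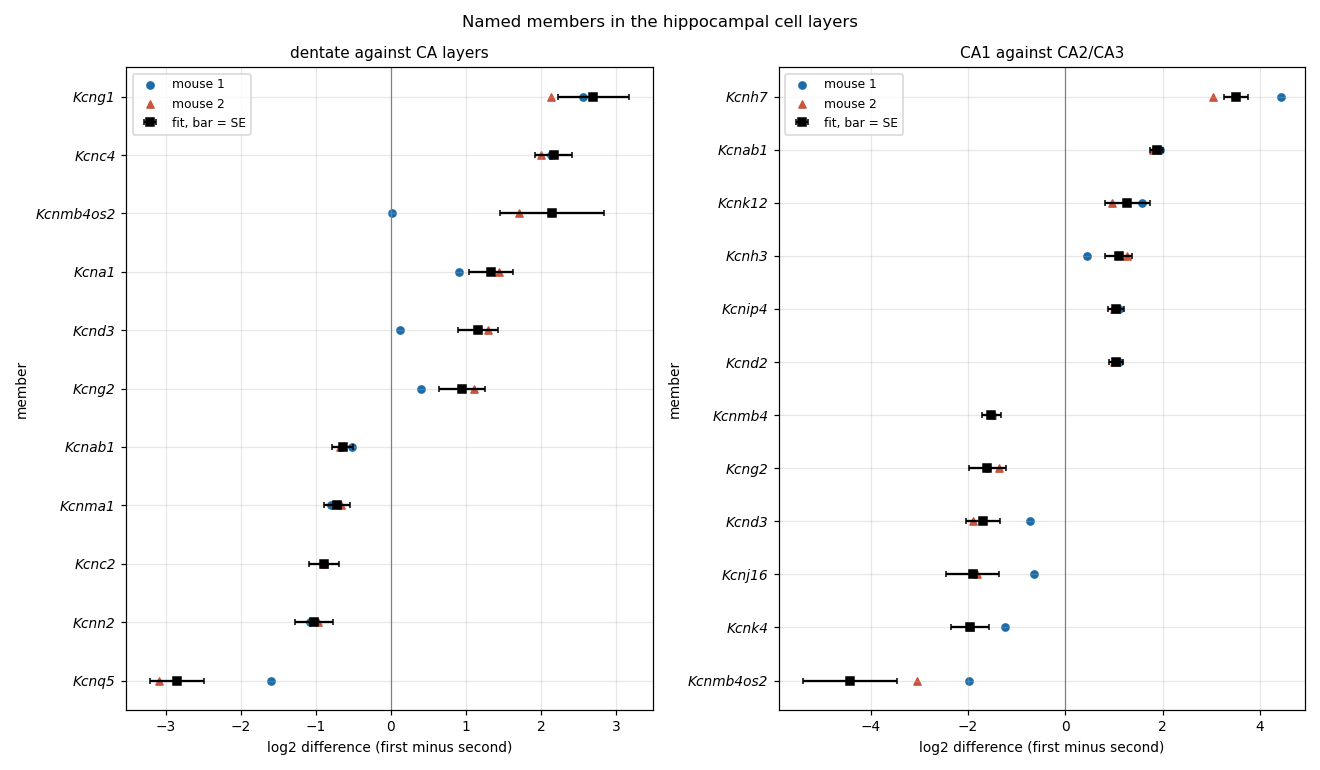
Log2 difference (x axis) of the named members (y axis) for the dentate region minus the CA regions (left) and CA1 minus CA2/CA3 (right). Squares are the fit with SE bars, and circles and triangles are mouse 1 and mouse 2 from log2 CPM with a prior count of 2, which draws low genes toward 0; Kcnh7 and Kcnab1 lead CA1 at 3.50 and 1.88.

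The neuropil Ddn region, which holds dendrites and glia, was set against the cell layers. Kcnj10 was at 75.9 and 82.4 CPM against 46.2 and 51.8 (log2 difference 0.89, SE 0.12, adjusted p = 1.64e-09 by edgeR) and Kcnip2 at 52.2 and 60.3 against 118.5 and 139 (-1.01, SE 0.13). Higher members included Kcnj16 (1.10, SE 0.29), Kcnc4 (0.91, SE 0.19), Kcnk3 (0.90, SE 0.31), Kcnk13 (1.01, SE 0.36) and Kcne1l (1.55, SE 0.60), and lower ones Kcng2 (-0.9995, SE 0.29), Kcnt2 (-0.64, SE 0.24), Kcns2 (-0.62, SE 0.19) and Kcnip4 (-0.55, SE 0.13). In all 12 were higher and 6 lower, with 26.5% of all genes called (15.3% higher, 11.1% lower). Kcnt2 lost its call under DESeq2 (adjusted p = 0.0953), without the replicate block (0.101) and with the deeper section thinned (-0.33, adjusted p = 0.416). Kcns2 lost it with thinning (0.103), Kcnk13 with library totals (0.0626) and thinning (0.289), and Kcnk3 (0.0672 and 0.0711) and Kcne1l (0.0649 and 0.0582) with library totals and without the block. When regions were drawn from marker scores instead of clusters, 4 members were called. Of the genes named here, Kcnk13, Kcng2 and Kcne1l then had the opposite sign (-0.0633, 0.0481 and -0.243), and Kcnj10 and Kcnip2 kept their sign with adjusted p = 0.437 and 0.120. All 8 astrocyte markers were higher in the neuropil (1919 and 1958 CPM against 800 and 934), as were all 8 oligodendrocyte markers (5222 and 6054 against 3100 and 3089), and their part was not tested.

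Against the neocortical layers, more channel genes were lower than higher in the hippocampal cell layers. Of 65 members 8 were higher and 22 lower, with 20.5% of all genes called (10.5% higher, 9.94% lower), and the median log2 difference was -0.16 over members and 0.05 over all genes. Kcnip2 was at 118.5 and 139 CPM against 56.9 and 46.1 (1.34, SE 0.14), and Kcng2 at 23.7 and 27.3 against 6.43 and 5.52 (1.93, SE 0.34, adjusted p = 1.61e-06 by edgeR). Both were higher in each mouse, and so were Kcnab1 (0.94, SE 0.11), Kcns2 (0.92, SE 0.22) and Kcnd2 (0.64, SE 0.11). Kcnt1, a sodium-activated channel gene, was lower (-1.81, SE 0.23), with Kcnh7 (-1.52, SE 0.16), Kcnc4 (-1.48, SE 0.19), Kcnf1 (-1.33, SE 0.16) and Kcnj16 (-1.31, SE 0.32). The comparison averages log levels over regions. As mean CPM, Kcnh7 was at 44.2 and 50.4 in the hippocampal layers and 73.1 and 75.9 in the neocortex. The hippocampal layers were not alike: in both mice CA1 was above each neocortical layer for Kcnh7, and CA2/CA3 and the dentate region were below. For Kcnc4, CA1 and CA2/CA3 were below each neocortical layer, and the dentate levels overlapped those of the neocortical layers. Kcne2 had 23 UMIs in the hippocampal regions and 3 in the neocortical ones, a ratio of 4.99 (95% exact counting interval 1.51 to 25.9), and lost its call with regions drawn from marker scores (adjusted p = 1) and without the replicate block (0.0773). The choroid plexus markers were higher there in 6 of 6 genes (1206 and 794 CPM against 181 and 217), and their part was not tested.

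Between deep and upper neocortex, 5 members were higher in the deep layers and 0 lower, with 3.84% of all genes called (1.61% higher, 2.23% lower), and 14 members had an unadjusted p under 0.05. Kcnn2 was at 39.3 and 41.9 CPM in the deep layers and at 10.1 and 14.5 in the upper ones (log2 difference 1.63, SE 0.43, adjusted p = 0.0113 by edgeR). Kcnab3 (1.31, SE 0.40), Kcnj10 (0.99, SE 0.26), Kcna6 (0.92, SE 0.24) and Kcna2 (0.71, SE 0.21) were the others. Only 3 were called by DESeq2, without the replicate block or with the deeper section thinned. Kcna2 lost its call in all 3 of these (adjusted p = 0.0612, 0.0894 and 0.0822), Kcnab3 under DESeq2 (0.0939), without the block (0.0959) and with no filter (0.0504), and Kcna6 with thinning (0.0693), with differences of 0.69 to 1.31. Regions drawn from marker scores included layer 4, which was averaged with the upper layers, so that comparison was not the same one. There 15 were called, of which 2 were among these 5, and Kcnj10 had the opposite sign (-0.40, adjusted p = 0.0461). All 8 oligodendrocyte markers were higher in the deep layers (4725 and 5286 CPM against 1160 and 1824), and their part was not tested.

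The thalamic relay regions differed from the neocortex in 42 of the 65 tested members, with Kcnc2, Kcnj10 and Kcna4 among those higher. Kcnc2, a Kv3 gene, was at 255.5 and 267.5 CPM in the relay and at 42.9 and 59.2 in the neocortex (log2 difference 2.22, SE 0.10, adjusted p = 1.91e-40 by edgeR). Kcnj10 was at 268 and 262 against 63.1 and 69.1 (1.96, SE 0.10), and Kcna4 at 28.4 and 33.6 against 5.90 and 7.41 (2.08, SE 0.25). Kcnn3, an SK gene, and Kcne1l were also higher (2.53, SE 0.33, and 3.37, SE 0.73). Kcne4, a KCNE auxiliary subunit gene, had 386 UMIs in the relay and 2 in the neocortex, and was highest in the Tnnt1 relay region (29.6 and 22.5 CPM). It held 93 UMIs outside the relay, under the minimum of 100, so it is a member only through the relay and its levels are a description.

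Among the members lower in the relay were silent subunit genes (4 lower and 2 higher of 8) and EAG, ERG and ELK genes (3 lower and 1 higher of 5). Kcnv1, a silent subunit gene, was at 0.997 and 1.49 CPM in the relay and 47.7 and 49.1 in the neocortex (-5.21, SE 0.27). The Kir gene Kcnj4 (-4.32, SE 0.24), Kcnh1 (-4.15, SE 0.38), Kcnh3 (-4.13, SE 0.25), Kcnq5 (-3.79, SE 0.26) and Kcng1 (-3.08, SE 0.46) were lower too. Of 65 members 23 were higher and 19 lower, with 43.6% of all genes called (23.5% higher, 20.0% lower); without Kcne4, 22 were higher. Of the 8 Kir genes, 5 were higher and 1, Kcnj4, lower. Of the 6 BK and sodium-activated genes, 3 were lower. Of the partner lists, 6 of 8 genes of potassium pumps and cotransporters were higher. All 8 oligodendrocyte markers and 6 of 8 astrocyte markers were higher in the relay (9138 and 9409 against 3537 and 4132 CPM, and 1577 and 1598 against 1152 and 1144). Their part was not tested.

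The reticular Pvalb-Six3 region, an inhibitory shell around the thalamus, differed from the relay in 45 of the 65 tested members, with the KChIP genes Kcnip1 and Kcnip4 in opposite directions. Kcnip1 was at 172 and 129 CPM against 6.16 and 5.58 in the relay (log2 difference 4.85, SE 0.15, adjusted p = 2.07e-55 by edgeR), and Kcnip4 at 17.7 and 17.9 against 202 and 216 (-3.38, SE 0.16). Kcns3 (4.67, SE 0.27), Kcng4 (2.72, SE 0.21) and Kcng1 (2.91, SE 0.49), all silent subunit genes, were higher, as were Kcnj4 (3.60, SE 0.28) and the BK beta gene Kcnmb2 (2.73, SE 0.40). Kcnab1 (-2.87, SE 0.18), Kcna4 (-2.83, SE 0.34), Kcnn3 (-2.58, SE 0.41) and Kcnmb4 (-2.55, SE 0.23) were lower. Kcnq5 had 0 UMIs in the reticular region and 74 in the relay, at least 2.77-fold lower against a floor of 3 UMIs over both libraries. It had the opposite sign (0.90, adjusted p = 0.0929) when regions were drawn from marker scores.

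In all 20 members were higher and 25 lower in the reticular region, with 31.3% of all genes called (15.9% higher, 15.3% lower); without Kcne4, 24 were lower. Of the Kv3 genes, Kcnc1 (0.37, SE 0.09) and Kcnc4 (1.11, SE 0.26) were higher and Kcnc2 lower (-1.84, SE 0.12). The BK gamma subunit gene Lrrc38 was higher (5.02, SE 0.36). Inhibitory neuron markers, part of which defined this region, were higher for 6 of 7 genes (7530 and 6908 against 520.5 and 486 CPM), and oligodendrocyte markers for 8 of 8 (18520 and 21130 against 9138 and 9409). Their part was not tested.

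In the habenular Tac2 region, Kcnip1, Kcng4 and the BK pore gene Kcnma1 were higher than in the relay, and the Kv3 genes Kcnc1 and Kcnc2 were lower. Kcnip1 was at 199 and 166.5 CPM against 6.16 and 5.58 in the relay (4.84, SE 0.15), Kcng4 at 95.1 and 129 against 9.48 and 8.56 (3.58, SE 0.16), and Kcnma1 was 1.60 higher (SE 0.09, adjusted p = 3.62e-32 by edgeR). Kcnmb1, a BK beta subunit gene, was at 13.1 and 16.2 CPM there against 0.711 and 1.11 in the relay, and Kcnh8 at 16.4 and 9.02 against 0.891 and 0.714. Both held under 100 UMIs outside the habenular region (69 and 83), so they are members only through it and these levels are a description. Kcnmb1 lies within the span of Kcnip1 on chromosome 11 (33962955 to 33973641, against 33629339 to 33993348), and counting of overlapping transcripts is uncertain. The BK gamma subunit gene Lrrc55 was at 279 and 287 CPM against 3.50 and 3.05. Kcnc1 was lower, at 43.7 and 40.3 against 282 and 296 (-2.93, SE 0.14), as were Kcnc2 (-2.62, SE 0.13), Kcnq3 (-2.73, SE 0.15), Kcnf1 (-2.69, SE 0.23) and Kcnk4 (-3.03, SE 0.50).

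In all 13 members were higher and 25 lower in the habenular region, with 45.8% of all genes called (24.5% higher, 21.3% lower). Without Kcnmb1, Kcnh8 and Kcne4, 11 were higher and 24 lower. All 4 Kv1 and all 3 Kv1 beta genes were lower, and 3 of 3 axon initial segment anchor genes. Kcne2 was at 16.4 and 13.8 CPM there and Kcnj13 at 9.84 and 12.6 (4.90, SE 0.52, and 4.86, SE 0.56). Choroid plexus markers were higher in the habenular region in 6 of 6 genes (4524 and 4961 against 320 and 109 CPM), none at 0, and their part in these 2 genes was not tested.

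**Figure D4:**
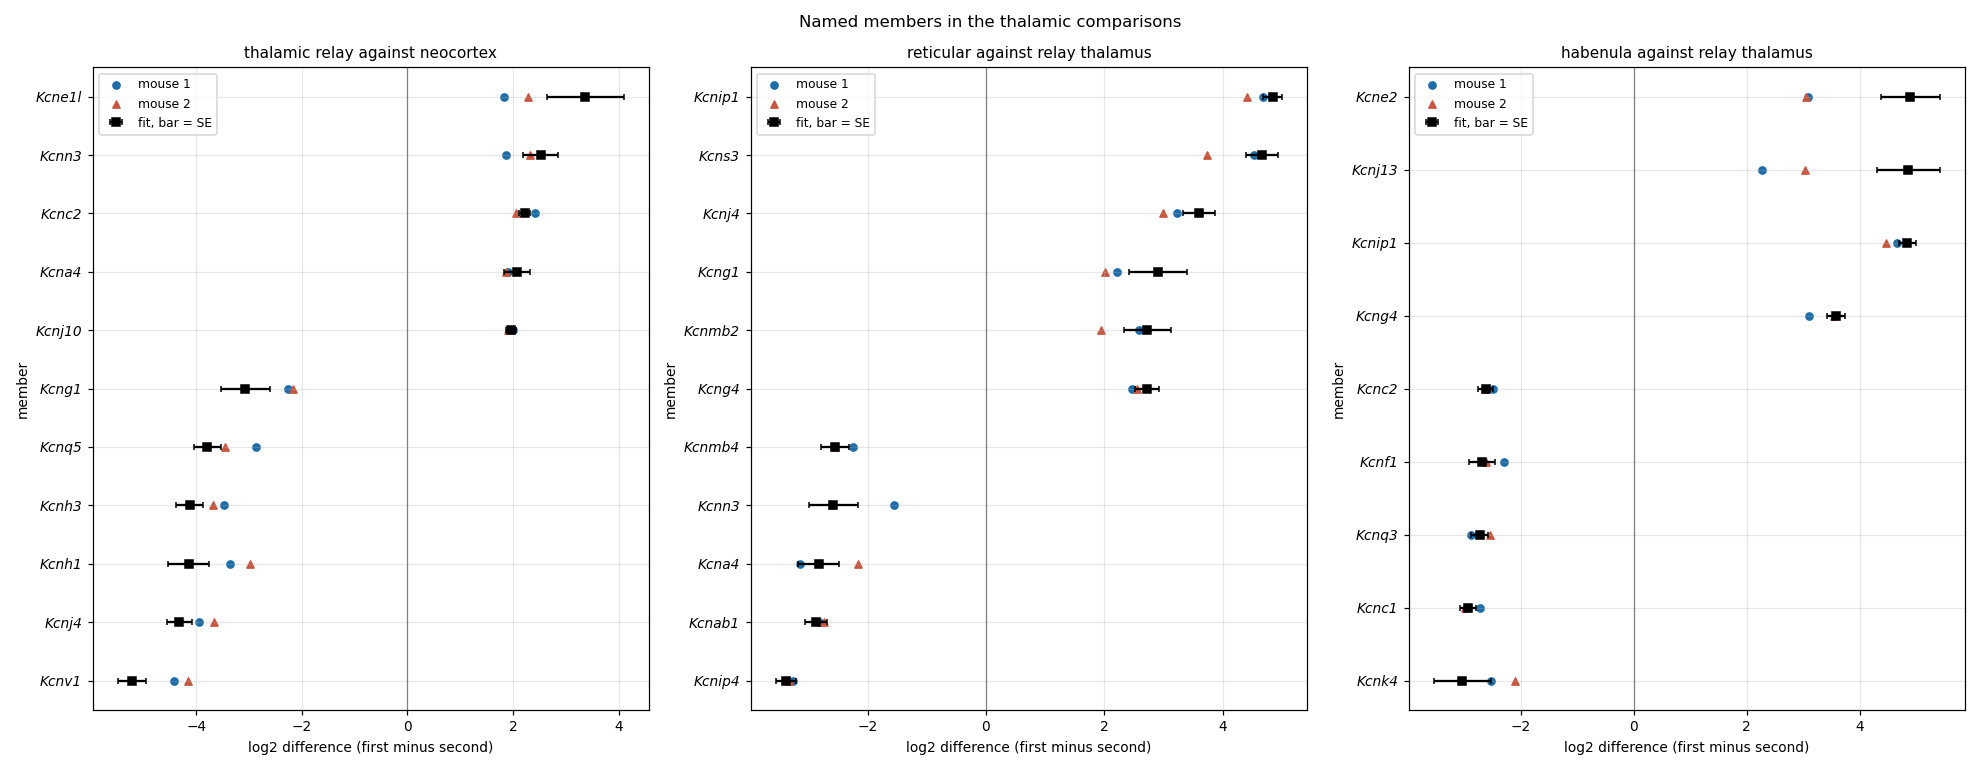
Log2 difference (x axis) of the named members (y axis) for relay minus neocortex (left), reticular minus relay (middle) and habenular minus relay (right), with the fit and SE bar as squares and mouse 1 and mouse 2 as circles and triangles (prior count of 2). Kcnip1 is the highest in the reticular comparison (4.85) and among the highest in the habenular one (4.84); Kcnq5, with no UMI in the reticular region, is not drawn there, nor are Kcne4, Kcnh8 and Kcnmb1, members only through the region where they are high.

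The hypothalamic Pmch region had lower levels of 33 of the tested members than the relay, 32 without Kcne4. Of 65 members 10 were higher and 33 lower, with 49.3% of all genes called (25.1% higher, 24.2% lower), and the median log2 difference was -0.83 over members and -0.00087 over all genes. Kcnq3 was at 26.5 and 26.8 CPM against 182 and 184 (-2.62, SE 0.12), Kcnj3 at 20.3 and 29.0 against 144 and 167 (-2.48, SE 0.12, adjusted p = 1.08e-38 by edgeR), and Kcna1 (-2.55, SE 0.25), Kcnc2 (-2.38, SE 0.11) and Kcns2 (-2.14, SE 0.20) were lower. Higher members were Kcnip1 (2.73, SE 0.17), Kcnc4 (56.9 and 58.7 against 10.3 and 9.49 CPM, 2.72, SE 0.14), Kcnh1 (2.32, SE 0.40), Kcnk2 (1.80, SE 0.17), Kcnq5 (1.78, SE 0.29) and Kcnk9 (1.43, SE 0.13). All 3 axon initial segment anchor genes were lower here as well. A region led by Penk was kept apart after its genes were seen; with it joined, 48 members were called. Excitatory neuron markers were lower in the hypothalamic region for 4 of 5 genes (268 and 304 CPM against 772 and 891) and inhibitory neuron markers higher for 5 of 7 (890.2 and 979 against 520.5 and 486). Oligodendrocyte markers were lower for 8 of 8 (6098 and 8071 against 9138 and 9409), and the part of these cells was not tested.

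In the white matter Mobp region, 34 of the tested members were lower than in the neuronal regions and 8 higher. Kcnk13, a K2P gene known from microglia, was at 51.7 and 43.1 CPM against 7.48 and 6.21 in the neuronal regions (log2 difference 3.23, SE 0.17, adjusted p = 1.01e-36 by edgeR). Kcnj10 was at 175 and 179 against 126 and 128 (1.14, SE 0.08), and Kcna6 at 89.8 and 97.3 against 58.1 and 60.0 (1.002, SE 0.09). The fit averages log levels over 9 neuronal regions, so its fold exceeds that of these mean CPM. For Kcnj10 the 3 relay regions were at 255 to 274 CPM, above the white matter. For Kcna6, layer 6 was above the white matter in mouse 1 only. Kcne1l was also higher (2.30, SE 0.39), but it held at most 3 UMIs in any neocortical layer of either mouse. The Tnnt1 relay region was above the white matter for Kcne1l in both mice. Kcna4 (-1.82, SE 0.30), Kcnip4 (-1.58, SE 0.12), Kcnj3 (-1.56, SE 0.11), Kcns2 (-1.53, SE 0.21), Kcnab1 (-1.39, SE 0.11) and Kcnj9 (-1.37, SE 0.13) were lower. Of all genes, 55.2% were called in this comparison (29.9% higher, 25.3% lower).

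Markers of several cells moved with these genes. Microglial markers were higher in white matter for 7 of 7 genes (643 and 583 against 254 and 249 CPM), and oligodendrocyte markers, which also defined the region, for 8 of 8. Over the 29 regions, which share their libraries, Kcnk13 had a Pearson r of 0.62 and 0.58 with the summed microglial markers, 0.71 and 0.79 with the oligodendrocyte markers and 0.80 and 0.86 with those of their precursors. Kcnj10 had 0.62 and 0.59 with the astrocyte markers and 0.69 and 0.67 with the oligodendrocyte markers. Kcnj13 and Kcne2 were called in white matter too (3.73, SE 0.56, and 2.45, SE 0.63), but not with regions drawn from marker scores (adjusted p = 0.0551 and 0.120). Choroid plexus markers were higher there in 6 of 6 genes (2695 and 1717 against 569 and 373 CPM). The part of these cells was not tested.

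The choroid plexus Ttr region, an epithelium that secretes cerebrospinal fluid, had its own genes. Kcnj13, a Kir gene, was at 428 and 318 CPM there and at most 12.6 in any other named region. Kcne2 was at 358 and 382 CPM there and at most 16.5 in any other named region. No comparison of this region was fixed, so these levels are a description. Kcnh1 was also highest there of the named regions (34.9 and 26.3 CPM), on 18 and 17 UMIs. It was not particular to the choroid plexus, and layer 6 was about level with it in mouse 2.

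**Figure D5:**
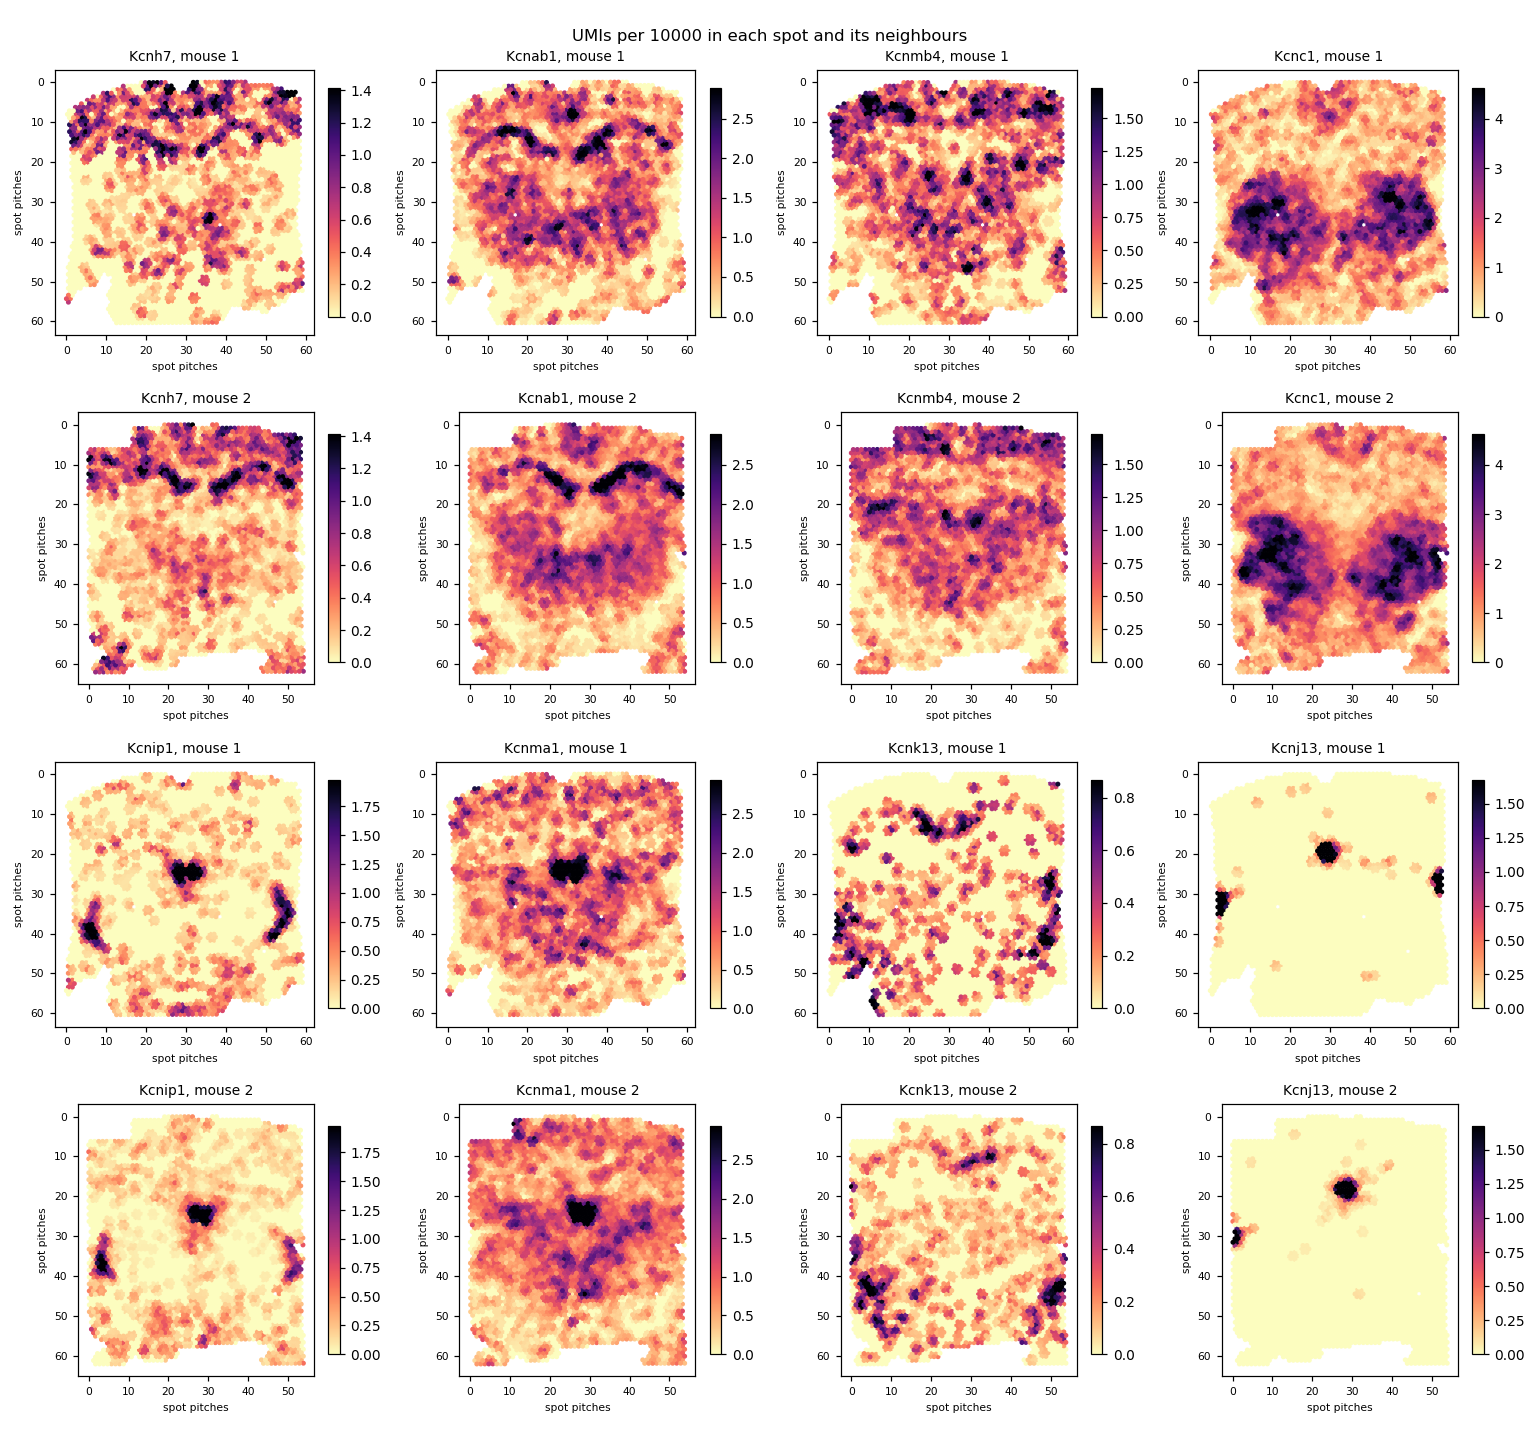
UMIs per 10000 of 8 members (titles) in each spot together with its adjacent spots, at the position in the section (axes in spot pitches), for mouse 1 and mouse 2; colours run from 0 to the 99th percentile of both sections. In both sections, Kcnh7 and Kcnab1 follow the CA1 arc, Kcnc1 the lateral thalamus, and Kcnip1 the habenula and the lateral shells. Kcnma1 follows the habenula, Kcnk13 the fibre tracts and Kcnj13 the ventricles, also in both. Kcnh7 and Kcnab1 were not confined to CA1. By region, Kcnh7 was also high in the neocortical layers, and Kcnab1 in the Tnnt1 and Zfp804a relay regions.

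The image sides of the hippocampal regions were also compared, since the labels do not give the injected side. Kcnab1 was at 112 and 114 CPM on the left and 134 and 161 on the right (log2 difference -0.39, SE 0.09, adjusted p = 0.0328 by edgeR), lower on the left in both mice. It was the only member called of 64, with 0.0503% of all genes called (0.0419% higher on the left, 0.00838% lower), and 7 members had an unadjusted p under 0.05. Each side pooled the spots of the dentate, CA1, CA2/CA3 and neuropil regions. Kcnab1 was highest in CA1, and the part of a different share of CA1 spots per side was not tested. The sides were split at a line fitted to mirror the region labels. Of the mirrored spots, 72.6% in mouse 1 and 82.2% in mouse 2 carried the same label. This fit had 1 residual degree of freedom. The call was lost in each of the 5 alternatives that gave a p, with adjusted p between 0.0653 and 1.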

How the data were processed

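Visium libraries from 2 coronal sections, 1 per mouse, were used as UMI counts per gene and spot, as deposited by the authors. Per the file headers, the authors counted them with Space Ranger 1.3.1, and the submitters' processing notes name the build mm10. Spots with at least 500 UMIs were kept (3712 of 3715 in mouse 1, 3548 of 3549 in mouse 2). They were clustered with scanpy 1.11.5 (Leiden, resolution 2; cortical spots again at 1.5, a step chosen after seeing the data) without Kcn, partner and mitochondrial genes. A region needed at least 20 spots in each section. No doublet caller was run, since spots are not cells.

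UMIs were summed per mouse and region (29 regions, 58 libraries) and fitted with edgeR 4.0.16 (R 4.3.3; TMM, filterByExpr, quasi-likelihood test, mouse as a block, Benjamini-Hochberg adjustment over 12198 genes, threshold 0.05). The block is the animal, since regions of the same section are compared. With 2 mice the error rests on a spread pooled over genes and regions. Values per mouse used a prior count of 2. Fits were tested on simulated data. For CA1 against CA2/CA3, 57.0% of simulated log2 differences of 1 and 89.5% of those of 2 were recovered, with 6 false calls. For the image sides these were 79.6% and 98.0%, with 4 false calls. The simulated libraries shared the same profile and spread apart from the changed genes, so they were simpler than the real data. Counts of 0 were bounded with 3 UMIs, and intervals cover counting error only.

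The text names, in each comparison, up to 6 members with the largest difference in each direction among those called and alike in both mice, and the levels of preset members. Some members and partner genes are not reported here, in the text or the plots. Other levels were chosen after they were seen. The members and lists were chosen with earlier results of these data known. Alternatives were DESeq2 1.42.0, library totals, no filter, no replicate block, regions drawn from marker scores, another resolution, thinning of the deeper section, no mitochondrial genes and each mouse left out. Gene positions and promoters are RefSeq's on GRCm38.p6.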

Additional observations from a re-analysis of the deposited data

How the results depend on the processing

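The counts of called members stayed within 1.5 times the reported count in all alternatives that gave a value, except in 3 comparisons. Neuropil against cell layers went from 18 to 4 members with regions drawn from marker scores. Deep against upper neocortex went from 5 to 3 with DESeq2, without the replicate block and with the deeper section thinned, and to 15 with marker scores. Marker scores gave a layer 4 region, so comparisons with neocortical layers then held other regions. The image-side count went from 1 to 0 with DESeq2, library totals, no filter, no replicate block and thinning. Without the replicate block, the other counts were 18 (dentate), 21 (CA1), 14 (neuropil), 27 (hippocampal layers), 41 (relay), 44 (reticular), 37 (habenula), 42 (hypothalamus), 38 (white matter) and 64 (any region). Of 114 differences of named members, 87 kept direction and call in every alternative with a value. With marker scores 18 of 113 lost the call and 5 changed sign: Kcnk13 (-0.0633), Kcng2 (0.0481) and Kcne1l (-0.243) in the neuropil, Kcnj10 (-0.40) in deep neocortex and Kcnq5 (0.90) in the reticular region. The cause was not tested. With either mouse left out, all 114 kept their direction. That was fixed in advance, since members were named only if alike in both mice, so it says nothing about robustness. Resolution 1 gave values for 48 of them, since it kept no CA1 or neocortical upper-layer region. The same highest region was found in both sections for 39 members with marker scores, 50 at resolution 1 and 46 after thinning, against 48. The 10 members not tested held 124 to 403 UMIs, while Kcnmb1 (108) and Kcnh8 (113), with 39 and 30 of theirs in the habenular region, passed the filter.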

Other observations

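Regions left without a name held further high levels of channel genes, some of them above the highest named region. In the region led by Necab1 and Gbx2, Kcna4, a fast-inactivating Kv1 gene, was at 38.2 CPM in mouse 1 and 50.7 in mouse 2, and Kcnma1 at 145 and 149. In a region led by Ttr and Ecrg4, Kcne2 was at 41.3 and 30.6 CPM and Kcnj13 at 31.8 and 20.0, next to their choroid plexus levels. These regions entered the fit but no comparison.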
